A study of Mus musculus with 2 samples.

Results

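The levels of 10 transcription factors of the lung epithelium were followed over the cell types of fetal mouse lung, together with the accessible chromatin around their genes. The genes were Nkx2-1, Foxa1, Foxa2, Cebpa, Sox9, Sox2, Gata6, Elf5, Ehf and Grhl2. They were chosen by name, and all 10 were found among the 32285 gene features of both libraries. The RNA and the accessible chromatin had been read from the same nucleus. The PBS library pooled the lungs of 9 fetuses of a PBS-treated mother. The OVA library pooled those of 8 fetuses of a mother made asthmatic with ovalbumin (OVA). Each library thus came from the litter of a single dam, so treatment cannot be told apart from dam and litter. The dams were wild-type C57BL/6J mice mated to untreated males, and sensitization began at 6 to 8 weeks of age. They had been injected with alum plus either PBS or 100 µg OVA on days -21 and -7, and received PBS or 500 µg OVA through the nose from gestation day 4 to gestation day 17. Lungs were taken on gestation day 18. Nuclei were made from epithelial cells sorted by EpCAM, sorted CD45+ cells and sorted ILC2s, the innate lymphoid cells of group 2. How the sorted cells were brought together is not given in the sources used here, and shares of cell types depend on it. With 1 library per group there was no replicate check. No test between groups was possible, no p-value is given, and each comparison of OVA with PBS is of these libraries and not of the conditions.

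There were 8019 barcodes in the PBS library with 11473351 gene UMIs (unique molecular identifiers, each standing for 1 captured RNA molecule), while the OVA library held 5960 barcodes with 13774959 gene UMIs. Mitochondrial genes took 45.2% of these UMIs in PBS and 29.2% in OVA, so levels are given in CPM, the UMIs of a gene per 1000000 UMIs of nuclear genes. A nucleus was assigned to a cell type when it held at least 3 of that type's marker genes and at least 2 more than of any other type. No transcription factor studied here was a marker. This gate took 2069 of the 4572 kept PBS nuclei and 2898 of the 5246 kept OVA nuclei. Alveolar type 2 (AT2) cells, which make surfactant, gave 491 PBS and 342 OVA nuclei, and alveolar type 1 (AT1) cells, the thin cells of gas exchange, gave 201 and 293. Ciliated cells gave 25 and 21 nuclei, airway secretory cells 8 and 6, and neuroendocrine cells 0 and 0. These types together are called epithelial below (725 and 662 nuclei). The other gated nuclei (1344 and 2236) were mostly fibroblasts (755 and 1176), ILC2s (277 and 492) and macrophages (144 and 254), so the fibroblast gate was the largest one although fibroblasts were not among the sorted cells. The median depth was 921 and 1651.5 nuclear UMIs in epithelial nuclei and 803.5 and 1450 in the other gated nuclei (PBS and OVA). Of the gated nuclei, 36.1% and 27.8% lay just at the gate's limit, and 54 barcodes occurred in both libraries. All intervals are 95% intervals and cover counting error only.

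The gates were checked against 10 general epithelial genes that had no part in them (Epcam, Cdh1, Krt8, Krt18, Krt19, Cldn4, Cldn7, Esrp1, Prom1 and Cldn18). Their summed level was 2166 CPM in epithelial and 113 CPM in other gated nuclei of the PBS library, and 2822 and 68.5 CPM in the OVA library. AT2-gated nuclei held a median of 7 (PBS) and 8 (OVA) AT2 markers and 1 marker of the next best type.

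These factors divide the work of building the lung epithelium. Nkx2-1 is the homeodomain factor that specifies the lung field and drives the surfactant protein genes, and Foxa1, Foxa2 and Gata6 are forkhead and zinc finger factors of the foregut endoderm. In the branching lung Sox2 marks the proximal airways and Sox9 the distal tips, Cebpa belongs to the maturing alveolar epithelium and to myeloid cells, Elf5 and Ehf are epithelial members of the ETS family, and Grhl2 controls genes of epithelial junctions.

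The starts of Foxa2, Foxa1, Cebpa and Nkx2-1 are shown because their chromatin differed in how far it was open to epithelial nuclei alone: the region over the Foxa2 start was most restricted to the epithelium of these, the one over Foxa1 less so, the one over Cebpa not at all, and Nkx2-1 had no region over its start that was called in both libraries. The values follow further on. Each run has 250 bases before and 50 bases after a transcription start in RefSeq (GRCm38.p6, the same build as mm10), read in the direction of the gene. Promoters of 6 of the 10 genes were found in the RefSeq table (9 promoters in all, Foxa2 with 3 and Elf5 with 2). The middle Foxa2 start is printed, at chr2:148045899-148046198 on the minus strand. Foxa1 is at chr12:57546062-57546361 and Nkx2-1 at chr12:56536859-56537158, both on the minus strand, and Cebpa is at chr7:35119043-35119342 on the plus strand. Capitals mark matches to short motifs of the forkhead, SOX, GATA, NKX2, C/EBP, ETS and grainyhead families, whose letters are given with their frequencies after the runs and which were searched on both strands.
Foxa2: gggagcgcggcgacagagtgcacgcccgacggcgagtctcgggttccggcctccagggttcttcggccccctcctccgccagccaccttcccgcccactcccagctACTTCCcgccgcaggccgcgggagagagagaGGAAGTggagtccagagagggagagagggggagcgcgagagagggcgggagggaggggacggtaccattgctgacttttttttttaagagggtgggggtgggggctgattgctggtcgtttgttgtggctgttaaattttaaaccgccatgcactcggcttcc
Foxa1: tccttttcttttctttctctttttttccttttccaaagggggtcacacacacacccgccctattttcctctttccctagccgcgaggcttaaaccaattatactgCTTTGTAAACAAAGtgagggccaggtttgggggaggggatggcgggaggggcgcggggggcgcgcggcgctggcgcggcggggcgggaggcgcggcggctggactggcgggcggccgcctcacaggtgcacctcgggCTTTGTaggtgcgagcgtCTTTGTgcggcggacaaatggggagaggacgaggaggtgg
Cebpa: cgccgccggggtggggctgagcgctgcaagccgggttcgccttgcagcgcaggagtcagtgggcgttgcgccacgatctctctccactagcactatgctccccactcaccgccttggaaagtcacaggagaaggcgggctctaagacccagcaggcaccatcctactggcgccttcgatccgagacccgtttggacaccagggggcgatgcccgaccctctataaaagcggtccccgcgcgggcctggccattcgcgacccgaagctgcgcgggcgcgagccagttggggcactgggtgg
Nkx2-1: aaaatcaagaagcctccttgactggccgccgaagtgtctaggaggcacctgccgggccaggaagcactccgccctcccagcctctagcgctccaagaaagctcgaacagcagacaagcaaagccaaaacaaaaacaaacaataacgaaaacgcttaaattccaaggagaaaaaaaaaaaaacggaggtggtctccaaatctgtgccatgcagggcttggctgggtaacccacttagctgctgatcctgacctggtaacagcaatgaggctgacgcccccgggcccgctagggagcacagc

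In the Foxa1 promoter a forkhead match sat between 2 SOX matches that overlap it, 141 bases before the start, and 2 further SOX matches lay 8 bases before and 10 bases after the start. The forkhead core, spelled GTAAACA, occurred in 3.65% of all 32851 promoters of this length, and the SOX core, spelled ACAAAG, in 18.7% of them. The Foxa2 promoter had 2 ETS matches, 144 and 113 bases before the start, and this motif, spelled GGAAGT, was found in 23.8% of all promoters. No match stood in the Cebpa or Nkx2-1 promoter. The GATA letters AGATAA were found in 11.2% of all promoters and the NKX2 letters CACTTNA in 11.5%. The C/EBP letters TTGCNNAA were found in 10.8% and the grainyhead letters AACCNGTT in 2.09%. Of the promoters not printed, a further Foxa2 start held GATA and SOX matches, Sox2 held C/EBP and SOX matches, and both Elf5 starts held a C/EBP match. A match is a run of letters and not a site that was shown to be bound. The printed Foxa2, Foxa1 and Cebpa promoters had 64.0%, 62.3% and 67.3% GC and Nkx2-1 had 53.7%, against a median of 52.7% over all promoters.

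The factors fell into 3 patterns in the 2 alveolar types. Nkx2-1, Gata6 and Grhl2 differed less than 2-fold between AT2 and AT1, Cebpa, Elf5, Ehf and Sox9 were several-fold higher in AT2 than in AT1, and Sox2 was near or at 0 in both. Foxa1 and Foxa2 gave few UMIs. Levels of different genes are not compared with each other, since a longer gene gives more UMIs in nuclei.

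Nkx2-1 reached 448 CPM in AT2 and 415 CPM in AT1 of the PBS library (312 and 123 UMIs), and 426 and 306 CPM in the OVA library (367 and 191 UMIs). Ciliated nuclei held 174 (PBS) and 199 (OVA) CPM. Macrophages held 2 UMIs in each library and fibroblasts 12 and 17. At least 1 Nkx2-1 UMI was seen in 38.3% of AT2 nuclei of the PBS library and 50.3% of the OVA library. When each nucleus was reduced to 500 UMIs, which removes the difference in depth, these shares became 21.4% and 19.6%, and those of AT1 nuclei 20.8% and 12.3%. In macrophages, which should lack the gene, the reduced shares were 0% and 0.395%.

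Gata6 stood at 116 CPM in AT2 and 159 CPM in AT1 of the PBS library, and at 126 and 189 CPM in the OVA library. It was also measured in fibroblasts, with 26 UMIs (27.7 CPM, interval 18.1 to 40.6) and 52 UMIs (20.8 CPM, interval 15.5 to 27.2), while macrophages had 0 in both libraries. Sftpc, a surfactant gene and AT2 gate marker, gave 465 and 797 UMIs in fibroblasts. At the ratio of Gata6 to Sftpc in AT2 nuclei this would come with 2.24 and 4.72 Gata6 UMIs. The fibroblast counts of Gata6 were above those numbers in both libraries. These numbers cover RNA from AT2 nuclei only, and Gata6 stood higher in AT1. The part of RNA from other nuclei in the fibroblast counts was not tested.

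Grhl2 was measured at 105 CPM in AT2 and 97.8 CPM in AT1 of the PBS library, and at 126 and 109 CPM in the OVA library. In ciliated nuclei it reached 254 CPM (16 UMIs) and 172 CPM (45 UMIs). Ciliated nuclei were thus 1.30 (interval 0.44 to 2.07) and 0.53 (interval 0.03 to 1.01) higher than AT2 and AT1 together on the log2 scale. Its level in ILC2s is described further on.

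Foxa2 gave 25.9 CPM in AT2 and 54.0 CPM in AT1 of the PBS library (18 and 16 UMIs), and 22.0 and 24.0 CPM in the OVA library (with 19 and 15 UMIs). Foxa1 had 30.2 and 13.5 CPM in the PBS library (21 and 4 UMIs), and 42.9 and 17.6 CPM in the OVA library (37 and 11 UMIs). Both genes were at 0 UMIs in macrophages of both libraries and at 3 or fewer in fibroblasts. The 2 paralogs thus did not have the same order over the alveolar types, with Foxa1 higher in AT2 and Foxa2 higher in AT1, but in the PBS library neither order went beyond counting error. In the OVA library the one for Foxa1 did.

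Cebpa was at 67.5 CPM in AT2 and at 3.37 CPM (1 UMI) in AT1 of the PBS library, and at 83.5 and 8.02 CPM in the OVA library. Elf5 was at 83.3 CPM in AT2 and at 0 UMIs in AT1 of the PBS library, where 3 counts would be 10.1 CPM, and at 93.9 and 8.02 CPM in the OVA library. Ehf was at 44.5 and 6.75 CPM, and at 45.2 and 1.60 CPM. For all 3 of these genes the AT2 and AT1 intervals did not overlap in either library. Ehf was also present in ciliated nuclei at 47.6 CPM (3 UMIs) and 57.4 CPM (15 UMIs), while Cebpa had 1 and 3 UMIs there.

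Sox9, the distal tip factor, was at 87.6 CPM in AT2 and 16.9 CPM in AT1 of the PBS library, and at 74.2 and 11.2 CPM in the OVA library. Fibroblasts held 10 UMIs (10.7 CPM) and 48 UMIs (19.2 CPM), against 1.68 and 2.77 that the Sftpc count would bring at the AT2 ratio. The part of RNA from other nuclei in these counts was not tested. In the OVA library the myofibroblast or smooth muscle gate held 5 Sox9 UMIs in 60 nuclei (53.9 CPM, interval 17.5 to 126), and in the PBS library 0 in 45 nuclei. Sox2, the airway factor, was at 0 UMIs in AT2 of both libraries, where 3 counts would be 4.31 and 3.48 CPM. In AT1 it had 2 (PBS) and 0 (OVA) UMIs. Its few other UMIs were in ciliated nuclei, 2 in the PBS library and 6 in 5 of the 21 nuclei of the OVA library, besides 1 UMI outside the epithelium in the OVA library.

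**Figure D1:**
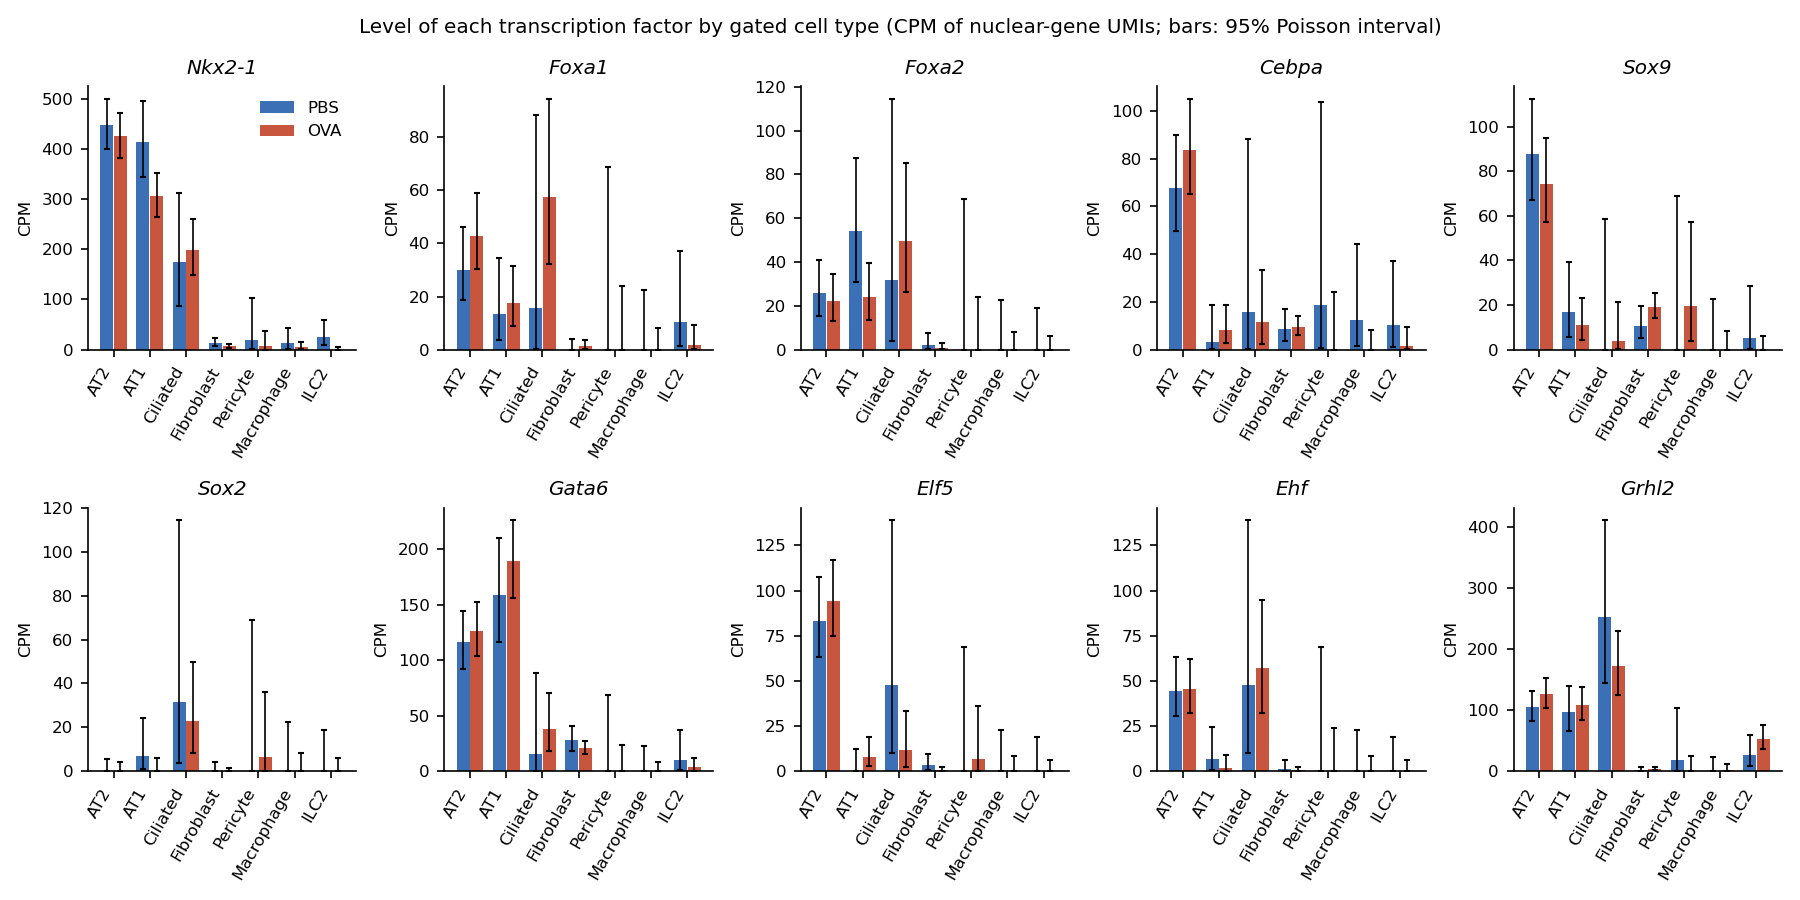
Level of each transcription factor in CPM of nuclear-gene UMIs (vertical axis, starting at 0, a scale per gene) by gated cell type and library, with blue bars for PBS and red bars for OVA and black lines for the 95% Poisson interval. Cebpa, Elf5, Ehf and Sox9 stand high in AT2 and low in AT1, and the ciliated bars rest on 25 and 21 nuclei.

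Single nuclei seldom showed more than 1 of these genes at this depth. At 500 UMIs per nucleus, 37.3% (interval 32.6 to 42.2) of AT2 nuclei of the PBS library and 40.7% (interval 35.2 to 46.3) of the OVA library held a UMI of at least 1 of the 10 genes, and 7.86% and 8.52% held at least 2. AT1 nuclei gave 28.9% and 26.2% for at least 1. Macrophages gave 0% and 0.395%, fibroblasts 3.26% and 3.04%, and ILC2s 4.05% and 3.23%. Reducing the depth left 407 PBS and 317 OVA nuclei of AT2, 149 and 260 of AT1, 125 and 253 of macrophages, 645 and 1152 of fibroblasts, and 148 and 434 of ILC2s.

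Over all epithelial nuclei against all other gated nuclei, 9 of the 10 genes were at least 4-fold higher in each library with no limit on UMIs, where 6.04% (PBS) and 8.10% (OVA) of all genes were. The exception was Sox2 in the PBS library and Sox9 in the OVA library. Of all genes with at least 100 UMIs, 6.62% were that much higher in PBS and 7.75% in OVA, and 3 of 3 and 4 of 5 of the factors that met this limit were. At 20 UMIs the shares were 7.67% and 10.0%, and the factors 9 of 9 and 8 of 9. Sox2 met neither limit, with 4 and 7 UMIs. The median log2 ratio over the 10 genes was 4.13 in the PBS library, with 3 counts in place of 0 for Sox2 outside the epithelium, and 4.33 in the OVA library. Over all genes with at least 100 UMIs it was -0.10 and -0.09. With at most 20% mitochondrial UMIs, which left 80 PBS epithelial nuclei, the PBS median of the 10 genes was 2.15.

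Nkx2-1 was 27.2-fold higher in epithelial nuclei of the PBS library (420 against 15.4 CPM, log2 interval 4.16 to 5.44) and 63.4-fold higher in the OVA library (345 against 5.44 CPM, interval 5.38 to 6.67). Elf5 was higher by 4.83 and 5.41 on the log2 scale, Ehf by 4.66 and 7.05 (1 UMI outside the epithelium in the OVA library), Foxa1 by 4.19 and 4.89, and Foxa2 by 4.07 and 5.75. Grhl2 was higher by 4.60 and 3.61. Gata6, Cebpa and Sox9 had lower ratios than these. They had UMIs in fibroblasts, and so did Nkx2-1 (12 and 17 UMIs). For Nkx2-1 the Sftpc count of fibroblasts would bring 8.61 and 15.9 UMIs at the AT2 ratio. The part of RNA from other nuclei was not tested. Gata6 was 5.36-fold and 8.91-fold higher, Cebpa 5.28-fold and 6.77-fold, and Sox9 8.40-fold in the PBS library but 2.94-fold in the OVA library (log2 1.55, interval 1.03 to 2.08). Sox2 had 4 epithelial UMIs against 0 in the PBS library, where the log2 interval began at -0.11 and so held 0, and 6 against 1 in the OVA library, a log2 ratio of 3.78 with an interval from 0.73 to 9.30.

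Between the alveolar types, the same 4 genes were at least 4-fold higher in AT2 than in AT1 in both libraries, and none of the 10 was at least 4-fold lower. Of all genes with at least 20 UMIs in these nuclei, 4.12% were that much higher in AT2 and 2.03% that much lower in the PBS library, and 4.58% and 2.62% in the OVA library. Of the 10 genes, 9 met that limit in each library. Cebpa was higher by 4.32 (interval 1.77 to 9.66) and 3.38 (interval 2.09 to 5.05) on the log2 scale. Elf5 was 3.04 higher in the PBS library with 3 counts in place of 0 (interval from 2.70) and 3.55 higher (interval 2.27 to 5.21) in the OVA library. Ehf was higher by 2.72 (interval 0.75 to 5.83) and 4.82 (interval 2.26 to 10.16), and Sox9 by 2.38 (interval 1.08 to 4.05) and 2.73 (interval 1.60 to 4.10). All of these intervals lay above 0.

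The factors shared by both alveolar types differed much less between them. Nkx2-1 was 0.11 higher in AT2 on the log2 scale in the PBS library (interval -0.19 to 0.42) and 0.47 higher in the OVA library (interval 0.22 to 0.73). Grhl2 differed by 0.10 (interval -0.54 to 0.77) and 0.21 (interval -0.24 to 0.67). Gata6 had its higher level in AT1, with a log2 ratio of AT2 to AT1 of -0.45 (interval -0.98 to 0.10) in the PBS library and -0.58 (interval -0.97 to -0.19) in the OVA library. Foxa1 gave 1.16 (interval -0.41 to 3.16) and 1.28 (interval 0.28 to 2.40), and Foxa2 -1.06 (interval -2.12 to 0.01) and -0.13 (interval -1.18 to 0.95). AT1-gated nuclei also held AT2 markers, at a summed level of 2773 CPM in the PBS library and 1602 CPM in the OVA library against 36170 and 33440 CPM in AT2. Their part in the AT1 levels was not tested.

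**Figure D2:**
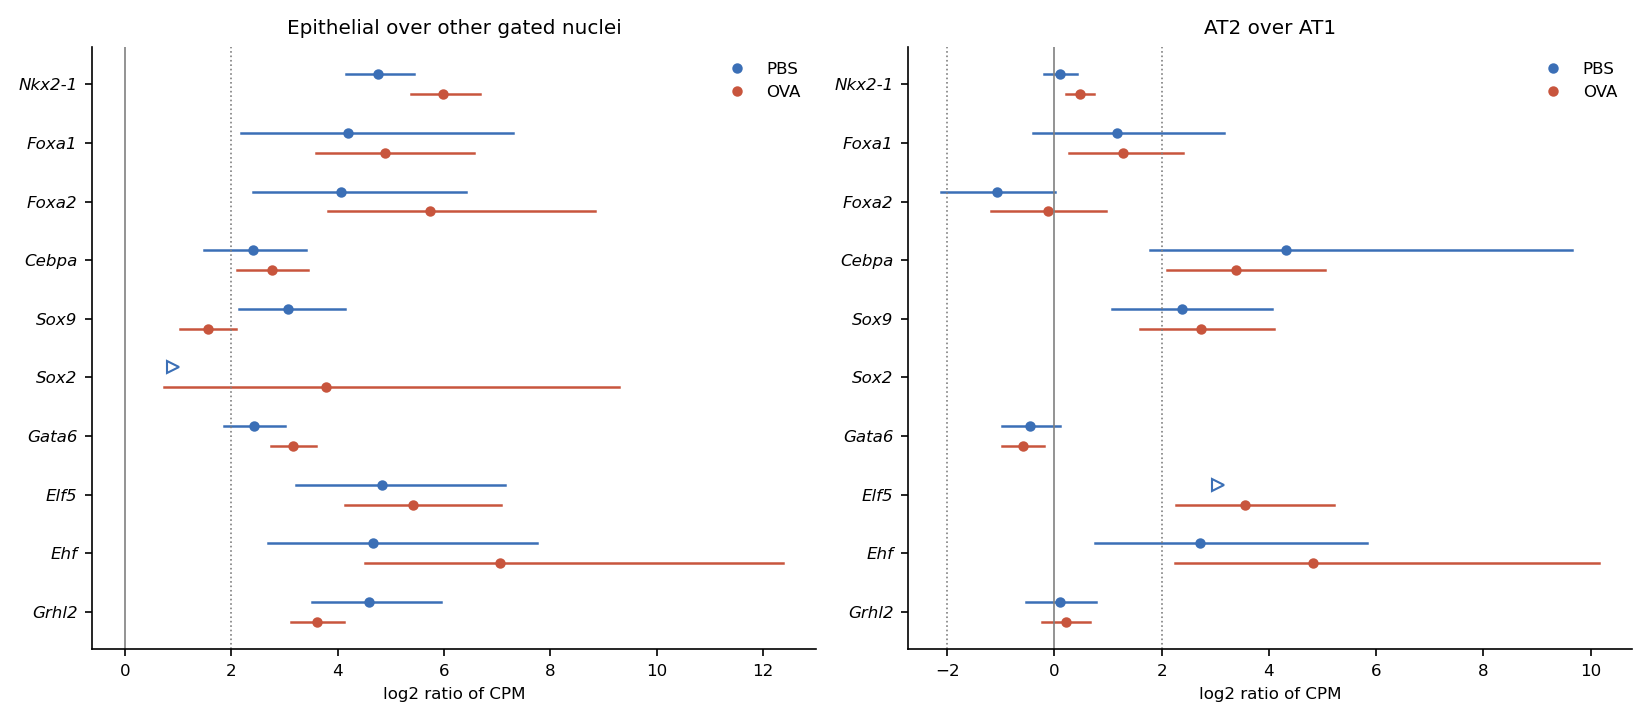
Log2 ratio of CPM (horizontal axis) of each transcription factor in epithelial over other gated nuclei (left) and in AT2 over AT1 (right), for the PBS (blue) and OVA (red) libraries. Points with lines are ratios with 95% intervals, open triangles are lower bounds, and dotted lines mark 4-fold. On the right only Cebpa, Elf5, Ehf and Sox9 lie beyond the upper dotted line in both libraries.

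Ciliated nuclei had another balance of the same factors. In the OVA library, whose ciliated nuclei were the deeper ones (median 5915 nuclear UMIs against 1991), the log2 ratio to AT2 and AT1 together was -3.64 for Sox9 (1 UMI, interval -8.97 to -1.12), -2.33 for Elf5 (interval -4.64 to -0.74) and -2.17 for Cebpa (interval -4.48 to -0.57). Gata6 stood at 38.3 CPM in ciliated nuclei against 153 CPM (log2 interval -3.08 to -1.09), and Nkx2-1 gave -0.92 (interval -1.36 to -0.51). Foxa2 and Ehf were higher there, by 1.12 (interval 0.07 to 2.08) and 1.09 (interval 0.13 to 1.98). Sox2 had 6 UMIs against 0, which is 11.4-fold with 3 counts in place of 0 (interval from 6.69-fold). In the PBS library Nkx2-1 gave -1.33 (interval -2.34 to -0.48) and Gata6 -3.02 (1 UMI, interval -8.34 to -0.52), Sox9 had 0 UMIs against 66, and Sox2 had 2 UMIs on each side, in the 25 ciliated nuclei and in the 491 AT2 and 201 AT1 nuclei. The intervals of Foxa1, Foxa2, Cebpa, Elf5 and Ehf held 0 there. Ciliated-gated nuclei also held airway secretory markers, at a summed level of 2855 CPM (PBS) and 3967 CPM (OVA). Ciliated markers summed to 8755 and 8323 CPM in them. The part of airway secretory RNA in the ciliated levels was not tested.

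The study asked what maternal asthma changes in the fetal lung. In AT2 nuclei none of the 10 genes differed 2-fold between the libraries with an interval that left out 0. Of all genes with at least 20 UMIs, 2.05% were that much higher in OVA and 2.62% that much lower. The log2 ratios of OVA to PBS ran from -0.24 for Sox9 to 0.51 for Foxa1, and the intervals of all 9 genes with UMIs there held 0. Their median was 0.12, and the median of all genes with at least 20 UMIs was 0.02. With at least 100 UMIs, 6 of them had a median of 0.15 and all genes one of 0.11. Nkx2-1 was the most narrowly measured of them, with a ratio of -0.07 (interval -0.30 to 0.15), and a change of 2-fold either way lay outside that interval. Grhl2 gave 0.27 (interval -0.17 to 0.72), Gata6 0.12 (interval -0.31 to 0.55), Cebpa 0.31 (interval -0.24 to 0.87) and Elf5 0.17 (interval -0.33 to 0.69). Ehf gave 0.02 (interval -0.70 to 0.75) and Foxa2 -0.23 (interval -1.24 to 0.78).

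In AT1 nuclei Nkx2-1 and Foxa2 were lower in the OVA library, with intervals below 0. Nkx2-1 stood at 306 CPM against 415 CPM, a log2 ratio of -0.44 (interval -0.77 to -0.10). Foxa2 stood at 24.0 CPM against 54.0 CPM (15 and 16 UMIs), a ratio of -1.17 (interval -2.28 to -0.06). Of the 4 genes with at least 20 UMIs in AT1, Foxa2 alone passed 2-fold with its interval off 0, and over all genes 2.08% did so upward and 2.73% downward. Gata6 gave 0.26 (interval -0.24 to 0.77) and Grhl2 0.16 (interval -0.49 to 0.84). The median of all genes was 0.03 with at least 20 UMIs and 0.13 with at least 100 UMIs. Neither difference held under every setting: with the mean over single nuclei Foxa2 gave -0.03, and without the 5% deepest nuclei the intervals of Nkx2-1 and Foxa2 reached 0.06 and 0.46. The difference between the AT2 and AT1 ratios was 0.36 for Nkx2-1 (interval -0.04 to 0.77) and 0.94 for Foxa2 (interval -0.57 to 2.45), so the 2 cell types were not shown to differ.

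Mitochondrial share and the genes of other cell types in the alveolar nuclei moved with the library. Mitochondrial UMIs took 35.9% of AT2 UMIs in PBS and 23.6% in OVA, and the 10 stromal transcription factors summed to 312 CPM in PBS and 139 CPM in OVA AT2 nuclei. The 10 immune transcription factors went the other way, from 468 to 692 CPM, and the 10 general epithelial genes from 1549 to 1974 CPM. Their part in these ratios was not tested. With mitochondrial UMIs in the denominator the median of all genes with at least 100 UMIs moved. It went from 0.11 to 0.37 in AT2 and from 0.13 to 0.26 in AT1.

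**Figure D3:**
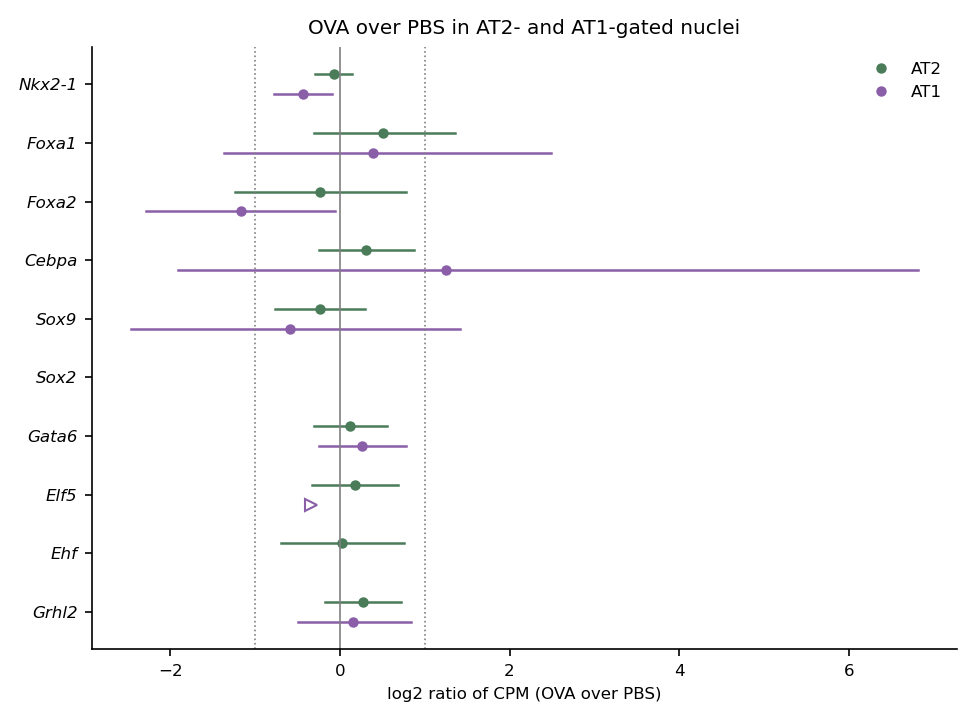
Log2 ratio of CPM in the OVA library over the PBS library (horizontal axis) for each transcription factor in AT2-gated (green) and AT1-gated (purple) nuclei. Lines are 95% intervals for counting error, the open triangle is a lower bound and dotted lines mark 2-fold. All AT2 intervals cross 0, and those of Nkx2-1 and Foxa2 in AT1 lie below it.

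Other transcription factors gave a frame for these values. Of 30 further epithelial factors, 12 of the 24 measured with at least 20 UMIs were at least 4-fold higher in epithelial nuclei of the PBS library and 1 was that much lower, and in the OVA library these were 12 and 1 of 26. Of 10 stromal factors 5 of 9 (PBS) and 9 of 9 (OVA) were at least 4-fold lower in the epithelium, and of 10 immune factors 5 and 4 of 10 were. Of the 10 general epithelial genes 9 were at least 4-fold higher in each library. The 5 named for their epithelial CPM, which is not corrected for gene length, were Foxp2 (1626 and 2163 CPM) and Foxp1 (1103 and 1390 CPM), forkhead factors of the lung endoderm, with Nfia, Nfib and Tead1. Foxp2 was higher in the epithelium by 3.06 and 3.74 on the log2 scale, while Nfib, which also acts in lung mesenchyme, gave log2 ratios of -1.34 and -0.99. The 5 named for their ratio were Tfcp2l1 (5.78 and 7.01), Elf3 (4.98 and 6.41), Irx5 (4.88 and 5.95), Irx1 (5.51 and 5.38) and Foxj1, the ciliated cell factor (3.36 and 5.10). The PBS values of Tfcp2l1 and Foxj1 use 3 counts in place of 0, with intervals from 5.46 and 2.94.

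Between the libraries, Irx1 was higher in OVA AT2 nuclei by 0.69 (interval 0.19 to 1.21), Foxp2 by 0.58 (interval 0.48 to 0.68) and Foxp1 by 0.42 (interval 0.30 to 0.55). In AT1 nuclei Rfx3 was higher by 0.91 (interval 0.24 to 1.64), Tead4 by 0.69 (interval 0.09 to 1.33) and Foxp2 by 0.48 (interval 0.33 to 0.63). None of these reached 2-fold. Of the further epithelial factors with at least 20 UMIs, 0 of 24 in AT2 and 1 of 23 in AT1 passed 2-fold with the interval off 0, the 1 in AT1 being lower.

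The genes whose levels went most closely with each factor were taken over 13 points, each 1 gated type in 1 library with at least 50 nuclei, by Pearson's r of log2(CPM + 10) among 8590 genes. The points share libraries and depth, and r is given as a description. Nkx2-1 went with Muc1, Ttc6 and Myo5c (r 0.98 each). Foxa2 went with Lurap1l, Cldn3 and Erbb3 (0.98 each), Gata6 with Patj, Nipal2 and Prkci (0.98, 0.97 and 0.97), and Grhl2 with Lrba, Epcam and Celsr1 (0.98, 0.97 and 0.97). The AT2-weighted factors had other neighbours: Ehf went with Arhgef38, Slc26a9 and Atp6v1c2 (1.00, 0.99 and 0.99), Elf5 with Fabp12, Ppargc1a and Cfap69 (0.95, 0.92 and 0.92), Sox9 with Bmp1, Grip1 and Rtkn (0.95, 0.94 and 0.93), and Cebpa with C77080, Bex2 and Acoxl (0.92, 0.92 and 0.91). Foxa1 went with St14, Kcnk1 and Lpcat1 (0.93, 0.93 and 0.92), of which Lpcat1 is an AT2 gate marker. Sox2 had 3 UMIs over these points and was left out. Among the factors themselves Nkx2-1 was nearest to Foxa2 (0.95) and Gata6 (0.92), Ehf was nearest to Elf5 (0.85), and Sox9 was least like Grhl2 (0.35).

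The chromatin of the same nuclei was compared in regions where the peaks of both libraries overlapped, of which there were 101838, and 105 of these lay within 100 kb of the start of 1 of the 10 genes. Elf5 and Ehf lie near each other on chromosome 2 and shared 3 regions. Values are in fpm, the fragments of a region per 1000000 fragments in shared regions. Over all 105 regions the epithelial nuclei held 2.03-fold more than the other gated nuclei in each library (log2 1.02, interval 0.96 to 1.09 in PBS and 0.96 to 1.08 in OVA). At least 2-fold more accessible were the windows of 6 of the 10 genes in each library, against 4.09% and 3.91% of the windows of all genes in the PBS and OVA libraries.

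Foxa2 had the most epithelial surroundings, at 128 against 17.3 fpm in the PBS library and 140 against 18.7 fpm in the OVA library (log2 2.89 and 2.91). Nkx2-1 followed with 1.89 and 1.93, Grhl2 with 1.89 and 1.82, Foxa1 with 1.60 and 1.91, Ehf with 1.64 and 1.16, and Gata6 with 1.34 and 1.27. Elf5 gave 0.87 and 0.84, Sox9 0.53 and 0.60, and Cebpa 0.41 and 0.40, all with intervals above 0. The window of Sox2 gave 0.33 and 0.40 with intervals that held 0. In the window of Sox9 epithelium and fibroblasts did not differ beyond counting error, with log2 ratios of epithelium to fibroblast of -0.12 (interval -0.50 to 0.27) and -0.14 (interval -0.50 to 0.22). Macrophages had 0 fragments there in both libraries.

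By single regions, 33 of 95 measured near these genes were at least 4-fold more accessible in epithelial nuclei of the PBS library and 34 of 103 in the OVA library, against 9.61% and 8.55% of all shared regions with at least 30 counts. Of these, 30 passed in both libraries. By distance from a region's edge, within 1 kb of a start 2 of 11 regions passed in both libraries, from 1 to 10 kb 6 of 19, from 10 to 50 kb 15 of 40 and from 50 to 100 kb 7 of 35. Whether these shares differ was not tested. With at most 20% mitochondrial UMIs 0 regions passed in PBS and 24 in OVA, and with at least 100 counts per region 18 and 12 passed. For these settings neither the number of regions measured nor the share over all regions is given. The counts therefore do not show whether the excess over all regions changed. Neither region near Sox9 and none of the 5 near Sox2 passed.

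Regions over the gene starts differed from gene to gene. A region shared by both libraries lay over the start of 6 genes, as the deposited gene table places the starts. The Grhl2 start (chr15:37232631-37233461) had 41.2 fpm in epithelial and 2.21 fpm in other nuclei of the PBS library, and 44.2 and 3.41 fpm in the OVA library, log2 ratios of 4.22 and 3.70. The Foxa2 start (chr2:148045728-148046750), which holds all 300 bases of the printed promoter, had 40.1 against 5.34 fpm and 47.9 against 5.78 fpm, or 7.51-fold and 8.29-fold. Gata6 was 2.75-fold and 2.21-fold more open at its start, and Foxa1 (chr12:57545356-57546145, which holds 84 bases of the printed promoter) 2.05-fold and 2.37-fold. In this Foxa1 region ILC2s stood at 16.4 fpm in each library, above fibroblasts (10.6 and 8.37 fpm) and macrophages (3 and 9 fragments), whereas Foxa1 RNA in ILC2s was 2 UMIs and 1 UMI. GENCODE M21 puts the outermost Foxa1 start further upstream, in a second shared region (chr12:57546454-57547420). It was 2.76-fold and 3.67-fold more open in the epithelium than in the other gated nuclei. ILC2s there stood at 28.5 fpm in the PBS library, where the epithelium also had 28.5 fpm, and at 26.7 against 34.1 fpm in the OVA library.

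The starts of Sox9 and Cebpa were open outside the epithelium as well. Sox9 (chr11:112781766-112782718) had 27.4 fpm in epithelial nuclei and 27.8 fpm in fibroblasts of the PBS library, and 28.4 and 33.9 fpm in the OVA library, with 0 fragments in macrophages. Cebpa (chr7:35118739-35119656) had 68.7 against 64.5 fpm and 62.5 against 66.1 fpm, with log2 ratios of 0.09 (interval -0.15 to 0.33) and -0.08 (interval -0.33 to 0.17). Its start was open in macrophages at 95.9 and 85.9 fpm, where Cebpa RNA gave 2 and 0 UMIs, and in fibroblasts at 71.0 and 77.0 fpm. Within the epithelium it was more open in AT2 (74.3 and 77.3 fpm) than in AT1 (46.8 and 20.0 fpm, from 26 and 12 fragments). The region over the Cebpa start also holds the start of Gm45091 on the other strand, that of Sox9 the start of BC006965, that of Gata6 the start of 1010001N08Rik and that of Grhl2 the start of Gm16136, so openness there cannot be told apart between the genes. Nkx2-1 had a peak over its start in the PBS library only, and its nearest shared region lay 3788 bases away. For Sox2, Elf5 and Ehf the nearest shared region lay 101, 129 and 685 bases from a start.

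The most epithelial region near each gene usually lay away from its start, but so did most regions compared, with 11 of the 105 within 1 kb of a start. Around Cebpa, whose start was open outside the epithelium too, it lay 6.0 kb upstream in intergenic sequence (chr7:35112859-35113813), with 94 epithelial and 6 other fragments in the PBS library and 62 and 5 in the OVA library (log2 4.56 and 5.49). There AT2 stood at 28.3 and 26.7 fpm and AT1 at 12.6 and 16.6 fpm. In the Foxa1 window a region 49.5 kb downstream, over an exon of the neighbouring gene Mipol1 (chr12:57496159-57497067), held 44 and 28 epithelial fragments and 0 others. With 3 counts in place of 0 its log2 ratios were 4.46 and 5.08, with intervals from 4.10 and 4.69. For Foxa2 the region lay 41.7 kb downstream in an intron of 9030622O22Rik (chr2:148004632-148005924), with 65 against 2 and 59 against 2 fragments (log2 5.61 and 6.74). The one for Grhl2 lay 80.2 kb downstream in an intron of the gene itself (chr15:37312823-37313634), with log2 ratios of 5.74 and 4.77. For Nkx2-1 it lay 11.3 kb downstream in an intron of Sfta3-ps (chr12:56524929-56526235), with 41 against 8 and 31 against 11 fragments (log2 2.94 and 3.35).

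The most epithelial regions near Elf5 and Ehf had higher fpm in AT2 than in AT1. The epithelial pool by which the most epithelial region of each gene was picked was mostly AT2. In the 105 regions AT2 gave 3685 of 4307 epithelial fragments in the PBS library and 2540 of 3268 in the OVA library. The choice thus favours regions open in AT2, and the order of AT2 and AT1 in these regions is no separate result. Near Elf5 it was a region over an exon of Cat, 55.7 kb downstream (chr2:103466872-103467821), with 26.2 and 32.0 fpm in AT2 against 5.40 and 3.33 fpm in AT1. Near Ehf it was a region over an exon of Gm13869, 93.5 kb downstream (chr2:103209348-103210281), with 17.7 and 10.7 fpm in AT2 against 5.40 and 4.99 fpm in AT1. For Gata6 an intergenic region 67.1 kb downstream gave 18.1 and 17.6 fpm in AT2 against 1.80 and 1.66 fpm in AT1 (1 fragment in each library). The RNA of Gata6 had the opposite order, beyond counting error in the OVA library alone. AT1-gated nuclei were shallow in chromatin, with a median of 3334 and 2437 transposition counts against 10190 and 9850 in AT2. Near Sox9 the most epithelial region had log2 ratios of 0.25 in the PBS library (interval -0.49 to 0.975) and 0.92 in the OVA library (interval 0.14 to 1.66). Near Sox2 they were 0.83 (interval -0.45 to 2.13) and 0.64 (interval -0.47 to 1.66).

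**Figure D4:**
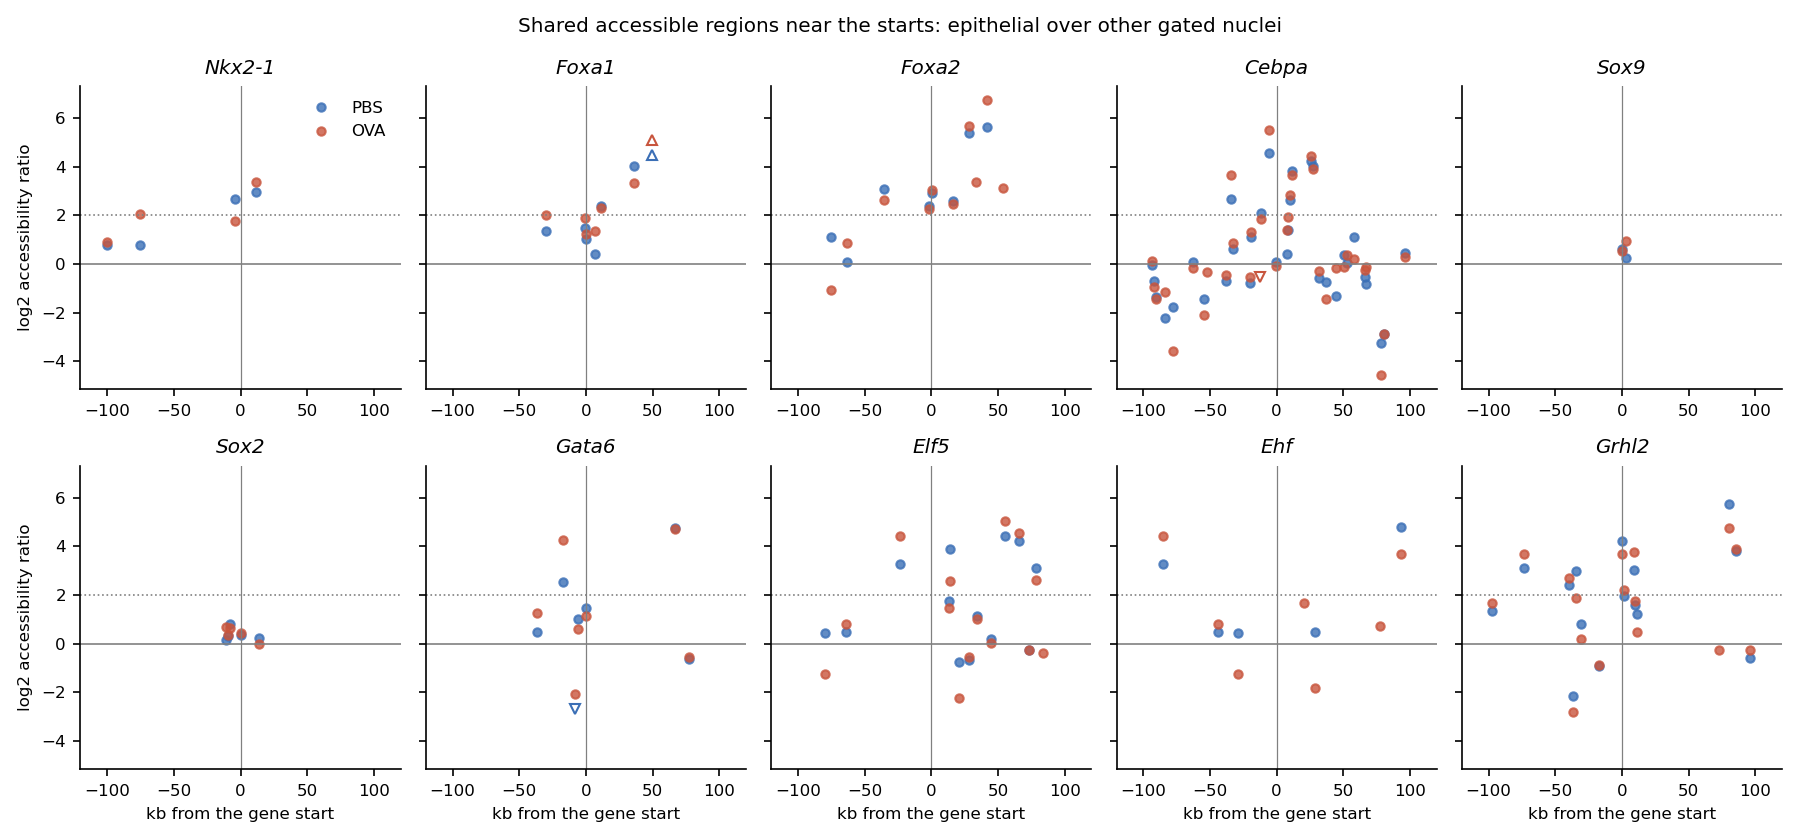
Log2 ratio of accessibility in epithelial over other gated nuclei (vertical axis) for shared regions with at least 30 counts, against the distance in kb of the region's centre from the gene start, with positive values downstream, for the PBS (blue) and OVA (red) libraries. Dotted lines mark 4-fold, and open triangles pointing up or down are lower or upper bounds. Most regions above the dotted line lie away from 0 on the horizontal axis, as do most regions shown, and Cebpa has regions on both sides of the zero line.

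Over whole windows, AT2 was more accessible than AT1 by 0.55 in the PBS library (interval 0.41 to 0.69) and 0.61 in the OVA library (interval 0.47 to 0.75) on the log2 scale for the 10 genes together. No value over the windows of all genes is given for AT2 over AT1. These ratios therefore cannot be read as particular to the 10 genes. Ehf gave 1.51 and 1.59, Elf5 0.92 and 1.12, Cebpa 0.59 and 0.52, Grhl2 0.52 and 0.79, and Foxa1 0.57 and 0.42, all with intervals above 0. Sox9 and Gata6 had intervals above 0 in the OVA library alone, at 1.31 (interval 0.40 to 2.36) and 0.59 (interval 0.04 to 1.18), and gave 0.29 and 0.25 in the PBS library. The RNA of Gata6 had the opposite order there, as given above. Sox2 gave 0.89 and 0.74 with intervals that held 0. Nkx2-1 gave 0.18 (interval -0.51 to 0.95) and 0.30 (interval -0.47 to 1.13), and Foxa2 0.19 and 0.17 with intervals that held 0. Between the libraries the AT2 windows of the 10 genes together stood 0.11 higher in OVA (interval 0.04 to 0.18), or 0.12 per kb of peak. Over the windows of all genes the median was -0.01 and the range from the 5th to the 95th percentile was -0.24 to 0.22. Of the single windows, Grhl2 alone had an interval off 0 in AT2, at 0.21 (interval 0.03 to 0.39).

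Grhl2 RNA was also found in ILC2-gated nuclei, a result singled out after the values were seen. The PBS library held 5 UMIs there (25.7 CPM) and the OVA library 32 UMIs in 29 of 492 nuclei (53.2 CPM, interval 36.4 to 75.2). AT2 nuclei stood 2.03 and 1.25 higher on the log2 scale. In the OVA library ILC2s were 16.7-fold above fibroblasts (log2 interval 2.91 to 5.39) and 24.1-fold above macrophages, which had 1 UMI (log2 interval 2.01 to 9.94). At 500 UMIs per nucleus 2.03% of PBS and 3.00% of OVA ILC2 nuclei held a Grhl2 UMI, against 0% of macrophages in both libraries. Sftpc gave 98 and 193 UMIs in ILC2s, which at the AT2 ratio would come with 0.425 and 1.14 Grhl2 UMIs. These numbers cover RNA from AT2 nuclei only, and the part of RNA from other nuclei was not tested. Of the other factors in OVA ILC2s, Nkx2-1 had 0 UMIs and Gata6 had 2. In the PBS library Nkx2-1 had 5 UMIs in ILC2s, as many as Grhl2.

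The ILC2 nuclei with a Grhl2 UMI held a median of 6 of the 9 ILC2 markers in each library and none had 3 or more AT2 markers, but the gate itself asks for ILC2 markers and a lead over other types, so this is no separate check. The 10 general epithelial genes, which had no part in the gate, gave them 0 UMIs in the PBS library against 102 CPM in ILC2 nuclei without Grhl2, and 3 UMIs (81.1 CPM) in the OVA library against 63.8 CPM. They were the deeper nuclei, with a median of 1381 nuclear UMIs against 515 in the PBS library and 1005 against 963 in the OVA library. The difference between the libraries was 1.05 on the log2 scale with an interval from -0.32 to 2.77. The counting strand was not given in the sources used here, and 3 genes on the other strand, Gm16136, Gm16137 and Gm16138, overlap Grhl2, so their reads cannot be told apart from those of Grhl2.

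The regions around Grhl2 had another balance in ILC2s than in the epithelium. At the start ILC2s stood at 3.45 and 4.68 fpm against 41.2 and 44.2 fpm in epithelial nuclei. A region 17.4 kb upstream had 8.63 fpm in ILC2s against 2.77 fpm in the epithelium of the PBS library and 7.96 against 3.37 fpm in the OVA library (log2 1.64, interval 0.22 to 3.06, and 1.24, interval -0.01 to 2.59). Fibroblasts, with little Grhl2 RNA, had 4.76 and 7.29 fpm in that region. A region 95.7 kb downstream had 11.2 against 3.60 fpm and 13.1 against 4.87 fpm (log2 1.64, interval 0.41 to 2.87, and 1.43, interval 0.43 to 2.50), and fibroblasts had 4.02 and 2.57 fpm. At 10.1 kb downstream ILC2s had 6.90 and the epithelium 6.64 fpm in the PBS library, and 5.62 and 5.99 fpm in the OVA library (log2 0.06, interval -1.31 to 1.26, and -0.09, interval -1.30 to 1.08), and fibroblasts had 0 and 2 fragments.

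**Figure D5:**
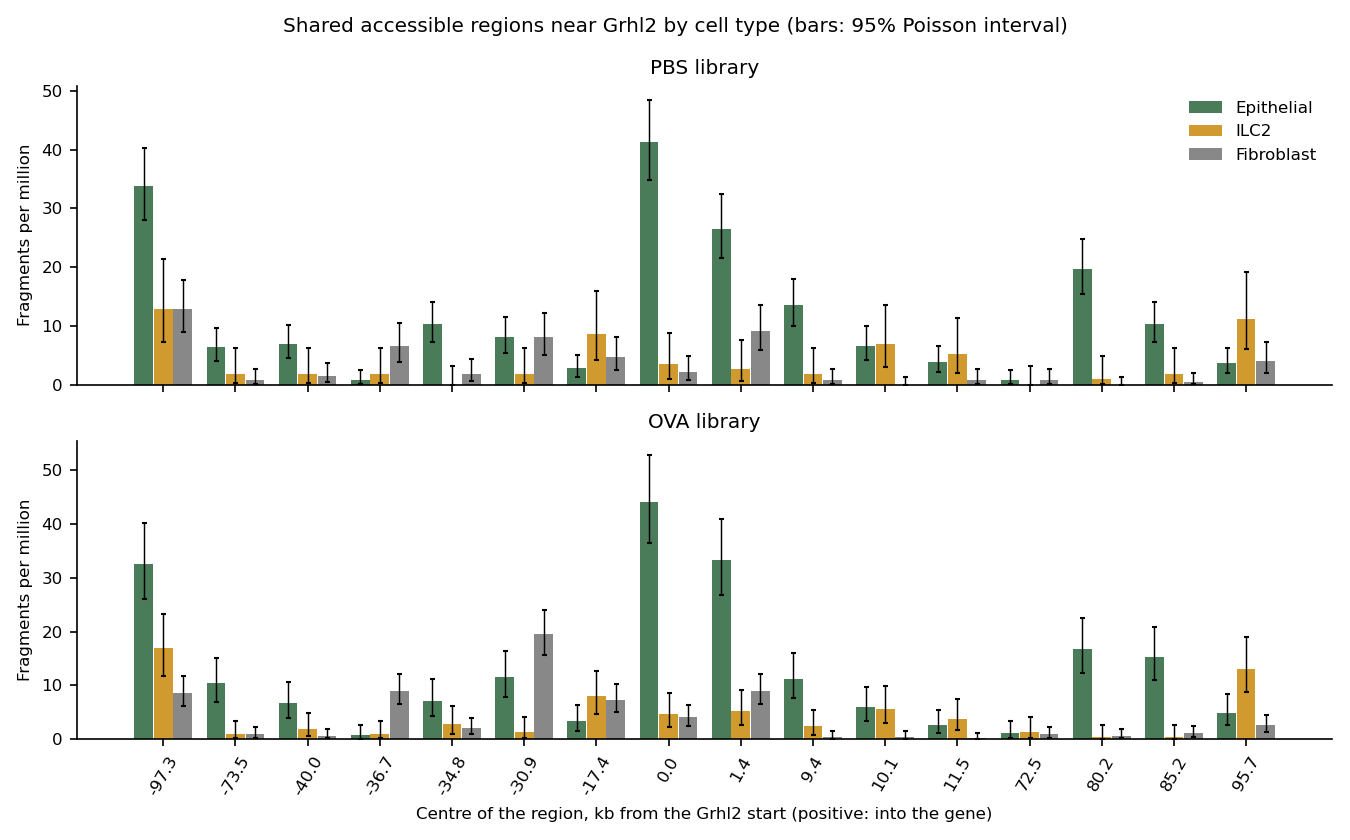
Accessibility in fpm (vertical axis, from 0) in the 16 shared regions around Grhl2, ordered by distance of their centre from the start in kb, for epithelial (green), ILC2-gated (yellow) and fibroblast-gated (grey) nuclei of each library, with 95% Poisson intervals. Epithelial bars lead at the start and at 80.2 kb, and ILC2 bars lead at -17.4 and 95.7 kb.

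The 10 genes lie on 7 chromosomes of mm10. Nkx2-1 (ENSMUSG00000001496, chr12:56531958-56536908) and Foxa1 (ENSMUSG00000035451, chr12:57540628-57546916) lie on chromosome 12, and Foxa2 (ENSMUSG00000037025, chr2:148042877-148046969), Elf5 (ENSMUSG00000027186, chr2:103411688-103450989) and Ehf (ENSMUSG00000012350, chr2:103263433-103303278) on chromosome 2. Cebpa (ENSMUSG00000034957) lies at chr7:35119293-35121928, Sox9 (ENSMUSG00000000567) at chr11:112782224-112787760, Sox2 (ENSMUSG00000074637) at chr3:34650405-34652461, Grhl2 (ENSMUSG00000022286) at chr15:37233036-37363569 and Gata6 (ENSMUSG00000005836) on chromosome 18. Nkx2-1, Cebpa, Gata6 and Grhl2 overlap a gene on the other strand. Sox2 lies within Sox2ot on the same strand, so that reads of the 2 genes could be split between them.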

How the data were processed

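RNA and accessible chromatin were measured in nuclei of 1 PBS and 1 OVA library of fetal mouse lung at gestation day 18. The authors deposited, for each library, whole-number counts of UMIs per gene and of transposition events per peak for every called barcode, with peaks called in each library alone. The submitters' processing notes name Cell Ranger ARC 2.0.1 and mm10, and the strand of counting is not given in the sources used here. The depth was 11473351 (PBS) and 13774959 (OVA) gene UMIs, and 66520943 and 51197323 transposition counts.

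Following the study's RNA filter, nuclei were kept from 200 genes up and to 60% mitochondrial UMIs. The study's further filter on counts of the joint data (over 1000 and under 25000 UMIs per nucleus, with over 1000 and under 100000 transposition counts) was tried as an alternative. It left 490 PBS and 496 OVA epithelial nuclei, AT1 falling from 201 to 100 in PBS. The study's limits on nucleosome signal and start site enrichment were not used here. Nuclei were gated by marker genes of 17 cell types (at least 3 markers and a lead of 2). No doublet caller was run, and nuclei with markers of several types were left out by the lead (602 PBS and 642 OVA nuclei). UMIs were summed per gate and library and divided by the nuclear-gene total to give CPM. Deposited accessibility counts were even in 91.3% and 91.2% of values, so fragments were taken as each count divided in 2 and rounded up, a choice made after seeing the data. Peaks of the libraries were joined where they overlapped by at least 1 base, and shared regions with at least 30 counts were compared (at least 100 counts for regions given by name). Gene positions are from GENCODE M21. Distances of named regions run from the outermost start in the deposited gene table, which differs from GENCODE M21 for Foxa1 and Gata6, to the centre of a region. Windows, distance bands and nearest shared regions instead use the gap from a region's edge to the nearest edge of the span of starts. The same region can thus have different values by these measures.

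No test was possible with 1 library per group. Intervals are 95% exact Poisson, Clopper-Pearson or conditional binomial intervals, and all cover counting error only, since libraries were not replicated. Where 1 side had 0, the ratio uses 3 counts in its place, and the exact interval can begin below that ratio. Calls were 4-fold between cell types and 2-fold between libraries, in both cases with the interval off 0. In counts simulated for AT2 nuclei from the counting model that the intervals assume, 4.48% of 2927 unchanged genes had an interval off 0. Variation between nuclei, litters or libraries was not part of that simulation.

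The 10 genes and the other lists were chosen with earlier results of these data known. Of the other epithelial factors, 5 were named for CPM, 5 for their epithelial ratio and 3 per alveolar type for their OVA ratio. For each of the 10 genes 3 similar genes, the most epithelial region and the region over the start were named. The limit of 20 UMIs was added after seeing the data. Alternatives for gate, depth, scaling, window and filter were recomputed. Software was Python 3.11.15, numpy 2.4.6, scipy 1.17.1, pandas 2.3.3 and matplotlib 3.10.9.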

Additional observations from a re-analysis of the deposited data

How the results depend on the processing

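No paired analysis was possible because PBS and OVA had a single library each, and for the same reason no replicate could be left out. Of 113 recomputed values of the main results 96 stayed within their error or within 1.5 times the count, 17 moved and 0 were counted as reversed. Of 711 values of single genes 630 stayed, 78 moved and 3 were counted as reversed. A value could cross 0 without being counted as reversed. The median OVA to PBS log2 ratio over the 10 genes ran from -0.15 to 0.37 in AT2 and from -0.54 to 0.16 in AT1. Single genes did so too, such as Foxa1 in AT2 (-0.43 to 0.76). The number of the 10 genes at least 4-fold higher in epithelial nuclei ran from 6 to 9 in the PBS library and from 8 to 9 in the OVA library. With at most 20% mitochondrial UMIs, which left 80 PBS and 245 OVA epithelial nuclei, the median log2 ratio over the 10 genes was 2.15 in PBS, the accessibility ratio was 0.86 in PBS and 0.95 in OVA, no (0) region passed 4-fold in PBS, the OVA over PBS ratio of AT2 accessibility was 0.25, and Sox9 accessibility in OVA turned to -0.14. With nuclei reduced to 500 UMIs the OVA median was 3.29, and with no lead over the next type the PBS accessibility ratio was 0.94. Within 10 kb the accessibility ratio was 1.29 (PBS) and 1.30 (OVA), with 9 regions passing in each, and Ehf in OVA turned to -0.32. Within 50 kb the ratio was 1.39 and 1.41, and without regions near other gene starts 1.38 and 1.43. With at least 100 counts per region 18 (PBS) and 12 (OVA) regions passed. The counts of passing regions in this paragraph stand without the number measured or the share over all regions. Sox2 in OVA turned to -0.34 with the mean of single nuclei. With no filter on low counts 6.04% (PBS) and 8.10% (OVA) of all genes were at least 4-fold higher. Apart from fewer nuclei and regions, the cause of these shifts was not tested. Depth limits Sox2, Foxa1, Foxa2 and the ciliated nuclei.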

Other observations

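The 2503 PBS and 2348 OVA nuclei that the gate left unassigned also held these factors, at lower levels in the OVA library. Nkx2-1 stood at 154 CPM in PBS and 79.5 CPM in OVA, a log2 ratio of OVA to PBS of -0.96 (interval -1.18 to -0.74). Foxa2 stood at 14.8 and 7.28 CPM (ratio -1.02, interval -1.78 to -0.28), Foxa1 at 10.2 and 5.12 CPM, and Ehf at 6.43 and 1.89 CPM. Gata6 stood at 59.4 and 39.1 CPM (ratio -0.60, interval -0.94 to -0.27) and Grhl2 at 34.4 and 25.1 CPM (ratio -0.46, interval -0.89 to -0.03). The intervals of Cebpa, Sox9 and Elf5 held 0, and Sox2 had 1 and 3 UMIs. These nuclei are of no single type. The 10 general epithelial genes summed to 939 CPM in PBS and 647 CPM in OVA there, and their part in these ratios was not tested.

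Over all epithelial nuclei together, Nkx2-1 gave an OVA to PBS log2 ratio of -0.28 (interval -0.46 to -0.10) and Sox9 one of -0.61 (interval -1.11 to -0.10). The AT2 share of those nuclei was also lower in OVA (342 of 662 nuclei against 491 of 725), and Sox9 within AT2 gave -0.24 with an interval from -0.77 to 0.29. In the nuclei removed by the filter, Nkx2-1 stood at 48.4 CPM in PBS and 44.8 CPM in OVA.

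Some regions near these genes were less accessible in the epithelium than in the other gated nuclei. A region 78.1 kb downstream of Cebpa had log2 ratios of -3.25 (PBS) and -4.58 (OVA), and a region 36.7 kb upstream of Grhl2 had -2.15 and -2.81. A region 7.8 kb upstream of Gata6 held 0 epithelial against 29 other fragments in PBS and 4 against 60 in OVA.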
